A study of Mus musculus with 12 samples.

Results

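The response of SIM-A9 cells to lipopolysaccharide (LPS) was described across all genes, in 6 of the 12 libraries of the series. SIM-A9 is a spontaneously immortalised mouse microglial cell line, given in the labels as C57BL/6. Wild-type (WT) cells received medium alone or, for 5 h, LPS at 1 µg/mL. Each group has 3 libraries, chosen by their column labels and by no measured value. Both groups were grown in the same medium with fetal bovine and horse serum, and RNA was sequenced as stranded total RNA after removal of ribosomal RNA. The other 6 libraries come from the H14 line, labelled as a knockout of the kinase MOK and given medium or LPS in the same way. They entered the fit to estimate the spread and served for a single test of whether the LPS effect differed between the lines. The labels call the samples biological replicates and do not say how the cultures were separated, so p-values measure only the spread between these samples.

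LPS is a component of the outer membrane of Gram-negative bacteria. It is handed by CD14 to Toll-like receptor 4 (TLR4) with its partner MD-2 on myeloid cells, and the receptor signals through MyD88 to NF-kB and MAP kinases and through TRIF to interferon regulatory factor 3. The first branch switches on cytokine, chemokine and feedback inhibitor genes. The second leads to interferon beta, which acts back on the cells through its receptor and turns on the interferon-stimulated genes. Microglia are the resident macrophages of the brain, and in tissue they lose part of their resting, or homeostatic, gene programme when they respond to such stimuli.

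The promoters of 5 genes with very large increases are printed to show the kinds of binding sequence these branches use. They were chosen among promoters that hold such a match, so its presence in them is not a result. Each run is the 250 bases before the transcription start in RefSeq on GRCm38.p6, 5′ to 3′ on the strand of the gene. Capitals mark matches to the NF-kB consensus or to the core of the interferon-stimulated response element (ISRE), GAAANNGAA, on either strand.
Cxcl2, chr5:90903649-90903898, plus strand: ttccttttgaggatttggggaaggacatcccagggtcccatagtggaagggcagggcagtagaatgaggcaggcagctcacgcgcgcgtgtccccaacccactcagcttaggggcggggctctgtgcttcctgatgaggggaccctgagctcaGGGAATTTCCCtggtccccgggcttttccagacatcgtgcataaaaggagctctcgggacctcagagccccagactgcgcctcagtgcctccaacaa
Il6, chr5:30012864-30013113, plus strand: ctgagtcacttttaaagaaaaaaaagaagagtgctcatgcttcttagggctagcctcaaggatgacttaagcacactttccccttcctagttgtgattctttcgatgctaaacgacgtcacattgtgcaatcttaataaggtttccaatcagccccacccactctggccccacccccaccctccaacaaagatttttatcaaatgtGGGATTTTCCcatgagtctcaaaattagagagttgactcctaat
Cxcl10, chr5:92348890-92349139, minus strand: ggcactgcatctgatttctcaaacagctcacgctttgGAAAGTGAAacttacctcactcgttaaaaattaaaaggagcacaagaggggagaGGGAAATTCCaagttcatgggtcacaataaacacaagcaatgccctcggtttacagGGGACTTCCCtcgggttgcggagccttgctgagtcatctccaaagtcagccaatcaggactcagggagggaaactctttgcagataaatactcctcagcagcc
Ifit1, chr19:34640639-34640888, plus strand: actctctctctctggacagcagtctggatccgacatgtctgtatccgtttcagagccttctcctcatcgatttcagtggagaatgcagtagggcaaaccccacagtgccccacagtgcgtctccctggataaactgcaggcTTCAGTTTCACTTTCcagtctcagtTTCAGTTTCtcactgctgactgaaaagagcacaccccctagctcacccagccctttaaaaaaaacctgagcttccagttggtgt
Rsad2, chr12:26456453-26456702, minus strand: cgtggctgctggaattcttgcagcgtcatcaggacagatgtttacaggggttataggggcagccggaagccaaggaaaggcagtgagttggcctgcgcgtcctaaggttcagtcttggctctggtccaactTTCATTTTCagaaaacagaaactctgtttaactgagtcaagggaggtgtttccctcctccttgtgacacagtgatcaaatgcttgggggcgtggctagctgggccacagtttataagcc
The 2 matches of Cxcl2 are to NF-kB and overlap almost fully, from 97 to 87 bases before the start, since the same letters read as a site on both strands. Il6 has 1 NF-kB match, 44 to 35 bases before the start. Cxcl10 holds both kinds, with an ISRE core 213 to 205 bases and NF-kB matches 159 to 150 and 103 to 94 bases before the start. Ifit1 has 3 ISRE cores between 109 and 76 bases before the start, of which the first and second overlap, and Rsad2 has 1 at 119 to 111 bases. A match is a description of letters and not evidence of binding in these cells.

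The medium libraries held 41102243 to 57127753 counts and the LPS libraries 43546757 to 72922794. The chi-square between 2 libraries, divided by its degrees of freedom, was 21.6 to 30.9 for pairs under LPS and 55.4 to 150.9 for pairs in medium, so no 2 libraries agreed within counting noise. Medium replicate 2 stood apart from the other WT libraries. It had 13.8% of its counts in processed pseudogenes, which are reverse-transcribed copies of messenger RNAs, against 9.45% and 7.03% in medium replicates 1 and 3 and 6.72% to 7.53% under LPS. It was not alone in the series: the 3 H14 medium libraries had 13.4%, 14.4% and 14.96%, and the H14 LPS libraries 7.08% to 7.80%. Most macrophage markers were detected: of 16 such markers 14 reached 10 CPM (counts scaled to library size) in some WT library. In medium, Laptm5 was at 641, 679 and 633 CPM and Csf1r at 269, 235 and 217 CPM. Aif1 and C1qa did not reach 10 CPM, at 2.32, 1.23 and 0.966 CPM and at 0.379, 0.195 and 0.0467 CPM in medium. C1qb and C1qc reached it only in replicate 1 of either group, with C1qb at 15.2, 4.93 and 3.94 CPM in medium. Of 24 homeostatic microglia markers, 14 stayed under 10 CPM and 7 under 1 CPM in every WT library. Fibroblast, neuron, neutrophil, oligodendrocyte and T cell markers summed to at most 19.6 CPM in any WT library. The astrocyte list was carried by Aldoc, the B cell list mostly by Blnk and the endothelial list by Flt1 and Kdr. Kdr was at 108.8, 88.7 and 90.5 CPM in medium and 103.9, 90.9 and 95.8 CPM under LPS, with overlapping groups. The endothelial list summed to 286.0 to 306.5 CPM in medium and 424.5 to 455.9 CPM under LPS, with 4 of 9 markers under 1 CPM throughout. Flt1 was at 178, 184 and 191 CPM in medium and 319.9, 316 and 341 CPM under LPS and passed the test (log2 fold change 0.82 ± 0.14, adjusted p = 0.000997), and its part in other results was not tested. In bulk RNA, fewer cells of a kind and less RNA per cell cannot be told apart.

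**Figure D1:**
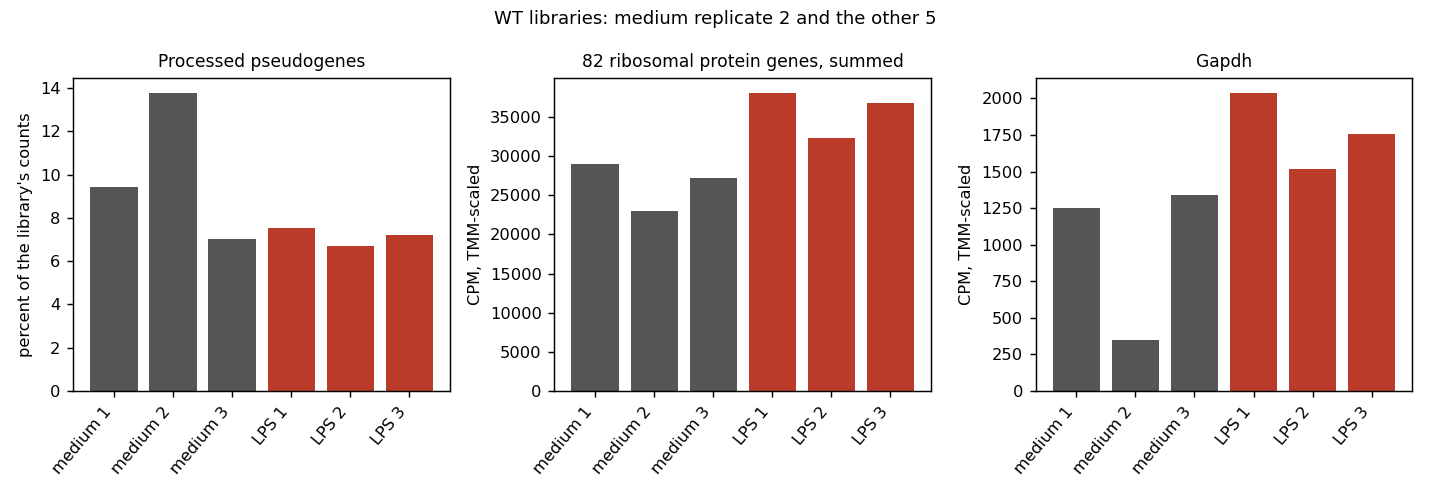
Share of counts in processed pseudogenes (percent of a library's counts), summed level of 82 ribosomal protein genes and level of Gapdh (both in CPM) in the 6 WT libraries, with medium in grey and LPS in red. Medium replicate 2 has the highest pseudogene share (13.8%) and the lowest Gapdh level (351 CPM, against 1251 to 2038 CPM in the other 5).

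LPS changed many genes, and among protein-coding genes the largest increases were far larger than the largest decreases. Of 26420 genes tested, 4303 rose and 4297 fell, which is 16.3% and 16.3% (edgeR quasi-likelihood test, Benjamini-Hochberg adjusted p under 0.05). Among 16173 protein-coding genes 3748 rose and 2199 fell, or 23.2% and 13.6%, with a median log2 fold change of 0.08 against -0.07 for all genes. Of the called protein-coding genes, 44 rose by more than 6 on the log2 scale, while 10 fell by 3 or more. Processed pseudogenes accounted for 1324 decreases and 154 increases, at a median of -0.83. The pseudogene share of medium replicate 2 moved with this class, and its part in the result was not tested. Without that library 2980 genes rose and 3146 fell, among protein-coding genes 2562 and 2190. The number of genes lower was 2094, 2513 and 2288 without LPS replicate 1, 2 or 3 (1374 protein-coding without LPS replicate 1), and 6337 without medium replicate 3. When counts were divided by library size alone, 2104 genes were higher and 9985 lower, and the median over all genes was -0.40 rather than -0.07. Protein-coding genes filtered and scaled by themselves gave 3245 higher and 3217 lower. Changes are therefore given relative to the bulk of all genes.

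**Figure D2:**
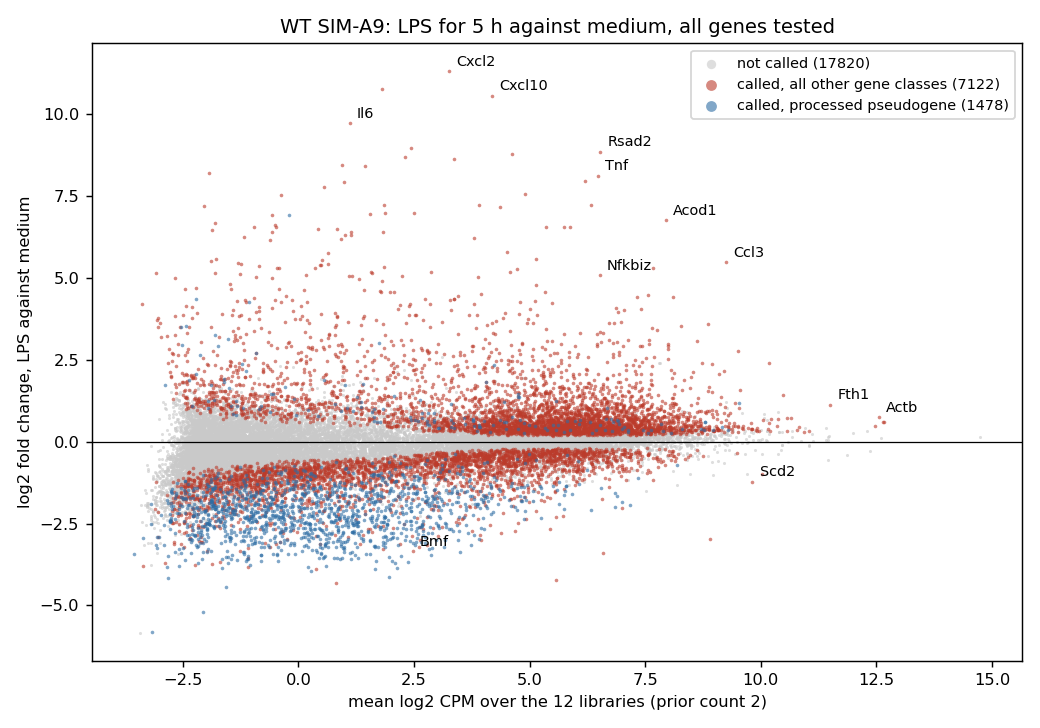
Log2 fold change under LPS against mean log2 CPM for each of the 26420 genes tested in WT cells. Red points are called genes of all other classes, blue points called processed pseudogenes and grey points genes not called; the top edge reaches beyond 11 while called protein-coding genes end near -4 at the bottom.

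Genes picked for their increase held a larger share of the counts under LPS, a direction fixed by that choice. The size of the shift is given here. The 436 protein-coding genes raised by at least 4-fold held 0.942% to 1.03% of all counts in medium and 7.90% to 9.01% under LPS. The 10 genes with the largest gain in CPM held 1.96% to 2.14% in medium and 4.45% to 4.58% under LPS. Among the genes with the largest gains were Rsad2, an antiviral radical-SAM enzyme, at 10.7, 9.6 and 6.05 CPM in medium and 4625, 3825 and 3834 CPM under LPS. Ccl3, a chemokine for monocytes, was at 111, 99 and 105 CPM in medium and 5829, 4311 and 4019.8 CPM under LPS. Fth1, the ferritin heavy chain that stores iron, went from 2059.7, 1780.3 and 1925 CPM to 4683, 3746 and 4188 CPM, and Actb, cytoplasmic actin, from 5115, 4354 and 4547 CPM to 8572, 7242 and 7859 CPM. In these 4 genes every LPS library lay above every medium library, a separation that the naming rule asked for and that 43% of all genes tested showed in 1 direction or the other. Clic4, an intracellular chloride channel protein, showed the same separation, at 578, 464 and 494 CPM in medium and 2932, 2425 and 2716 CPM under LPS (log2 fold change 2.39 ± 0.20, adjusted p = 5.35e-06). Actb, a common reference gene, rose by 0.76 ± 0.13 on the log2 scale (adjusted p = 0.000829). Gapdh, another, did not pass the test (0.85 ± 0.45, adjusted p = 0.169), with medium replicate 2 far below the other medium libraries. Actb and Gapdh share 23.5% and 27.2% of their 31-base words with transcripts of other genes, among them processed pseudogenes.

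Genes of the receptor and its relay rose more often than protein-coding genes as a whole. Of 25 genes 18 rose and 3 fell, with a median of 0.69, against the background of 23.2% and 13.6%. For 8 lists both shares were within 10 percentage points of that background: myeloid lineage factors, growth and vascular factors, the unfolded protein response, autophagy, glycolysis, cholesterol synthesis, NAD metabolism and disease-associated microglia markers. Cd14, the co-receptor that binds LPS, was at 94.3, 82.6 and 79.7 CPM in medium and 497, 398 and 398 CPM under LPS (log2 fold change 2.33 ± 0.13, adjusted p = 1.91e-07). Tlr4 itself went the other way, from 65, 54 and 54.2 CPM to 37.8, 39.4 and 38.3 CPM (log2 fold change -0.59 ± 0.12, adjusted p = 0.00325), and the groups did not overlap. Ikbke, an IKK-related kinase of the interferon branch, rose from 27.5, 26.6 and 29.4 CPM to 419.7, 551 and 459 CPM (log2 fold change 4.10 ± 0.17, adjusted p = 2.25e-08). Irak2, which sustains MyD88 signalling, rose by 2.94 ± 0.19. Irak1, the most counted member of the list in medium, was at 141, 121 and 135 CPM in medium and 132, 129.8 and 143 CPM under LPS, and its groups overlapped (0.03 ± 0.12, adjusted p = 0.871; with library size alone it was called lower at -0.31).

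**Figure D3:**
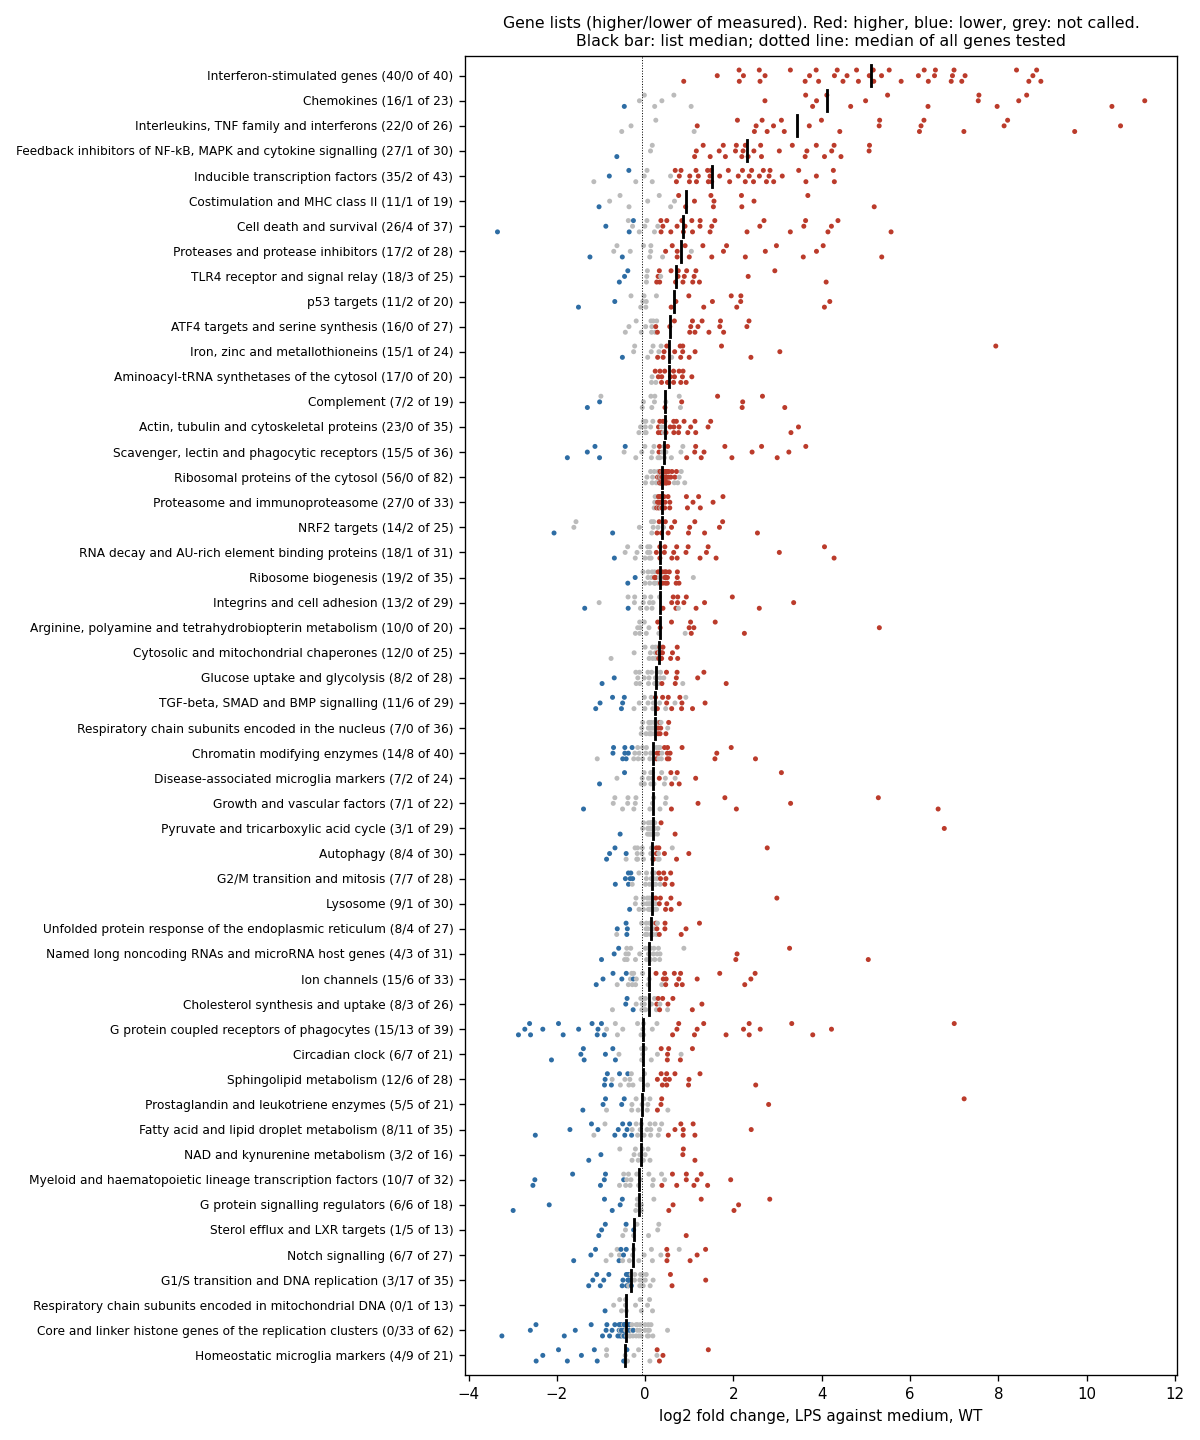
Log2 fold changes of the members of 52 gene lists in WT cells, 1 point per gene, with red for higher, blue for lower and grey for not called. Black bars are list medians and the dotted line is the median of all genes (-0.07); the numbers after each name are members higher and lower of those measured, from 40/0 of 40 for interferon-stimulated genes to 4/9 of 21 for homeostatic microglia markers.

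Inhibitors of these same pathways rose nearly throughout. Of 30 feedback inhibitors 27 rose and 1 fell, with a median of 2.30. Nfkbia encodes IkB-alpha, which holds NF-kB in the cytoplasm, and was at 39.2, 41 and 41.3 CPM in medium and 915, 798 and 915 CPM under LPS (log2 fold change 4.44 ± 0.15, adjusted p = 5.97e-09). Nfkbiz, a nuclear IkB protein that serves as a coactivator for Il6 and other secondary genes, rose from 15.7, 15.7 and 17.2 CPM to 581, 518 and 544 CPM. Both genes rose by more than 4 on the log2 scale with little spread between libraries. Cish, a STAT5-induced SOCS family inhibitor, went from 0.737, 0.649 and 0.748 CPM to 26.2, 26.3 and 19.7 CPM, and Tnip1, a partner of the deubiquitinase A20, from 73.4, 61.9 and 71.3 CPM to 259.7, 216 and 253 CPM. Zc3h12a encodes Regnase-1, a ribonuclease that destroys cytokine messenger RNAs, and rose by 4.28 ± 0.12. Zfp36, or tristetraprolin, which binds AU-rich elements of the same messages, rose by 4.06 ± 0.17. Among 31 RNA decay and AU-rich element binding proteins 18 rose and 1 fell, with a median of 0.33 that turned to -0.00 with library size alone (12 higher and 10 lower there).

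Transcription factors split by kind. Of 43 factors known to be induced by stimulation 35 rose and 2 fell, with a median of 1.51. Irf1 was at 11.6, 8.89 and 9.27 CPM in medium and 155, 131 and 152 CPM under LPS and Irf7 at 14.5, 11.5 and 9.02 CPM in medium and 163, 139 and 134 CPM under LPS. Both factors drive interferon-responsive genes, and each rose by more than 3 on the log2 scale with no overlap between groups. Bhlhe40, the most counted member in medium, was at 216, 179 and 189 CPM in medium and 229, 189.6 and 234 CPM under LPS, and the groups overlapped (0.16 ± 0.26, adjusted p = 0.659). Factors that set myeloid identity moved in both directions, with 10 of 32 higher and 7 lower and a median of -0.13. These shares, 31.2% and 21.9%, are near the 23.2% and 13.6% of protein-coding genes. Lyl1, a basic helix-loop-helix factor of haematopoietic cells, fell from 52.6, 43.9 and 47.1 CPM to 7.72, 8.18 and 8.72 CPM (log2 fold change -2.54 ± 0.12, adjusted p = 6.47e-08). Spi1, which encodes PU.1, rose from 125, 117 and 118 CPM to 275, 252 and 248 CPM (log2 fold change 1.10 ± 0.11, adjusted p = 1.71e-05), and Id3, an inhibitor of basic helix-loop-helix factors, rose by 1.94 ± 0.28. Rxra, the retinoid X receptor that pairs with many lipid-sensing receptors, fell from 252, 209 and 246 CPM to 97.7, 96.7 and 122 CPM (log2 fold change -1.16 ± 0.11, adjusted p = 1.55e-05).

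Secreted signals included the 4 largest log2 fold changes of the genes named here, those of Cxcl2, Csf3, Cxcl10 and Il6. Of 26 interleukin, TNF family and interferon genes 22 rose and none fell (median 3.43), and of 23 chemokine genes 16 rose and 1 fell, with a median of 4.11. Cxcl2, which attracts neutrophils, was at 0.4, 0.497 and 0.608 CPM in medium and 1431, 1366 and 1110.1 CPM under LPS (log2 fold change 11.32 ± 0.43, adjusted p = 2.12e-08). Csf3, the granulocyte colony-stimulating factor, was at 0.147, 0.281 and 0.156 CPM in medium and 392, 349 and 271 CPM under LPS (log2 fold change 10.77 ± 0.90, adjusted p = 9.44e-06). Il6 was at 0.0843, 0.13 and 0.0312 CPM in medium and 97.8, 58.9 and 45.2 CPM under LPS (log2 fold change 9.73 ± 0.52, adjusted p = 2.92e-07). The medium values of these 3 genes rest on few reads, 12 counts in all for Il6 and 30 for Csf3 over the 3 medium libraries, while LPS gave 10878 and 53790 counts. Tnf was at 6.38, 6.96 and 6.33 CPM in medium and 2045, 1793 and 1672 CPM under LPS, and Il1rn, the interleukin-1 receptor antagonist, at 178, 194 and 191 CPM in medium and 4492, 3951 and 3506 CPM under LPS. Il10, an anti-inflammatory cytokine, stayed low at 0.105, 0.195 and 0 CPM in medium and 0.535, 0.798 and 0.459 CPM under LPS, with 14 counts in medium and 92 under LPS (log2 fold change 2.65 ± 0.61, adjusted p = 0.007, and 0.0598 in a fit of only the 6 WT libraries). Ifnb1 had 1 count in medium and 429 under LPS, a count ratio of 420.2 (95% Clopper-Pearson interval 75.0 to 16640.0, which covers counting error only).

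The 40 interferon-stimulated genes all rose, with a median of 5.12. Ifit1, which binds foreign 5′ RNA ends, was at 0.716, 0.562 and 0.405 CPM in medium and 319.8, 245 and 264 CPM under LPS (log2 fold change 8.96 ± 0.45, adjusted p = 2.39e-07). Cmpk2, a nucleotide kinase that neighbours Rsad2 in the genome, was at 3.56, 3.42 and 1.7 CPM in medium and 1554, 1175 and 1056 CPM under LPS (log2 fold change 8.78 ± 0.57, adjusted p = 1.52e-06). Both were low in medium and far above it in each LPS library. The 4 guanylate-binding proteins named here, GTPases that attack pathogen vacuoles, went from under 1 CPM in every medium library to far higher levels. Gbp2 reached 179, 173 and 156 CPM, Gbp7 124, 128 and 108 CPM, Gbp5 87.9, 87.1 and 69.3 CPM and Gbp3 66.4, 68.2 and 55.2 CPM. Samhd1, a dNTP hydrolase with a high resting level, had the smallest increase of the members, from 166, 145 and 156 CPM to 289, 278 and 289 CPM (log2 fold change 0.87 ± 0.07, adjusted p = 2.35e-06). Ifit1 and Gbp7 share 10.5% and 14.7% of their 31-base words with transcripts of other genes, and Ifit3 61.8%, so reads of these families may be split between copies.

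**Figure D4:**
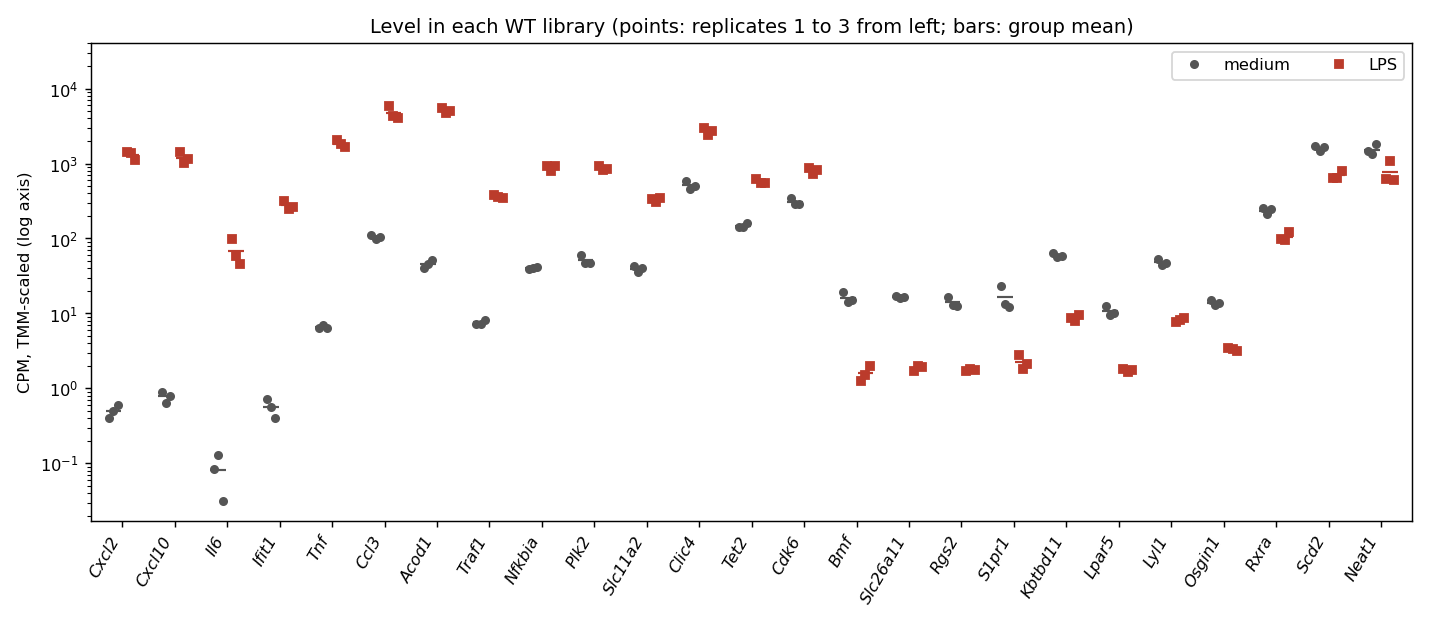
Level in CPM (log axis) of 25 genes in each WT library, with medium as grey circles, LPS as red squares and group means as short bars. In each of the 25 genes the 3 medium and 3 LPS libraries do not overlap, as the rule behind many of them required (43% of all genes tested do not); 14 genes are above and 11 below their medium level under LPS.

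Single enzymes that make small signalling molecules rose steeply, while others of the same pathways did not pass the test or fell. Acod1, which makes itaconate, was at 40, 45.9 and 51.4 CPM in medium and 5422, 4657 and 4962 CPM under LPS and Nos2, the inducible nitric oxide synthase, at 53.3, 65.1 and 63 CPM in medium and 2522, 2157 and 2489 CPM under LPS. Both were measured in every medium library and rose by 6.78 ± 0.29 and 5.30 ± 0.19. Gch1, which supplies the tetrahydrobiopterin cofactor of Nos2, rose from 14.4, 14.5 and 14.6 CPM to 69.6, 68.5 and 68.2 CPM (log2 fold change 2.25 ± 0.08, adjusted p = 5.97e-09). Of 20 genes of arginine, polyamine and tetrahydrobiopterin metabolism 10 rose and none fell, while of 21 prostaglandin and leukotriene enzymes 5 rose and 5 fell. Ptgs2, the inducible cyclooxygenase, was at 13.8, 12.2 and 12.9 CPM in medium and 2481, 1759 and 1579 CPM under LPS, and Ptges, which makes prostaglandin E2, rose by 2.80 ± 0.16. Ptgds, which makes prostaglandin D2, fell from 6.26, 7.4 and 6.95 CPM to 3.01, 3.74 and 3.89 CPM (log2 fold change -0.95 ± 0.23, adjusted p = 0.00886; with the pseudogene share as a covariate 0.05005).

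Secreted proteases, growth factors and complement changed in part. Of 28 proteases and protease inhibitors 17 rose and 2 fell, with a median of 0.82. Slpi, an inhibitor of neutrophil elastase, was at 10.7, 9.36 and 10.2 CPM in medium and 168, 135 and 143 CPM under LPS. The aggrecanase Adamts4 rose by 3.58 ± 0.28. Of 22 growth and vascular factors 7 rose and 1 fell (31.8% and 4.5%, near the background of 23.2% and 13.6%). Gdf15, a stress-induced member of the TGF-beta family, was at 6.53, 5.64 and 6.29 CPM in medium and 269.7, 235 and 214 CPM under LPS (log2 fold change 5.28 ± 0.19, adjusted p = 8.32e-09), and Pdgfb, a growth factor for pericytes, rose from 20.8, 18 and 21.7 CPM to 205, 173 and 216 CPM. Of 19 complement genes 7 rose and 2 fell, among them the receptors C3ar1 (2.66 ± 0.15) and C5ar1 (2.21 ± 0.21) and the central component C3 (1.64 ± 0.19), all higher.

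Receptors for chemical signals changed in both directions. Of 39 G protein coupled receptors of phagocytes 15 rose and 13 fell, with a median of -0.05, close to that of all genes. The increases included Ccrl2, a non-signalling chemerin receptor, at 1.33, 0.93 and 0.857 CPM in medium and 161, 114 and 123 CPM under LPS, Gpr84, a receptor for medium-chain fatty acids, at 6.17, 5.54 and 5.92 CPM in medium and 60.1, 59.3 and 56.7 CPM under LPS, and Adora2a, an adenosine receptor, at 0.737, 0.93 and 0.857 CPM in medium and 14, 10.2 and 10.9 CPM under LPS. The decreases included S1pr1, the sphingosine-1-phosphate receptor of cell egress, at 23.3, 13.5 and 12.4 CPM in medium and 2.8, 1.8 and 2.11 CPM under LPS. Gpr183, which senses oxysterols, was at 20.2, 18.6 and 17.6 CPM in medium and 3.04, 2.82 and 3.45 CPM under LPS, and Lpar5, a lysophosphatidic acid receptor, at 12.5, 9.58 and 10.1 CPM in medium and 1.8, 1.67 and 1.76 CPM under LPS. Gpr157 fell from 30.9, 20.8 and 20.9 CPM to 3.33, 3.67 and 3.96 CPM. In each of these 4 receptors every LPS library lay below every medium library, a separation that the naming rule required. Of all genes tested, 43% showed it in 1 direction or the other. Among 18 regulators of G protein signalling 6 rose and 6 fell. Rgs2 fell from 16.7, 12.8 and 12.6 CPM to 1.73, 1.8 and 1.77 CPM (log2 fold change -2.99 ± 0.14, adjusted p = 4.53e-08), Rgs1 rose from 15.1, 16.5 and 15.7 CPM to 63.4, 78.4 and 63.4 CPM (log2 fold change 2.12 ± 0.22, adjusted p = 3.03e-05), and Arrdc3, an arrestin-like adaptor, fell by 2.17 ± 0.16 on the log2 scale.

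Surface molecules for uptake, adhesion and T cell contact also changed. Of 36 scavenger, lectin and phagocytic receptors 15 rose and 5 fell. Clec4e, or Mincle, a lectin that recognises mycobacterial glycolipid, was at 55.5, 50.9 and 53.4 CPM in medium and 742, 651 and 597 CPM under LPS (log2 fold change 3.64 ± 0.18, adjusted p = 8.94e-08). Trem2, a lipid-sensing receptor of microglia, fell from 85.2, 70.3 and 75.4 CPM to 40.1, 32.5 and 40.1 CPM (log2 fold change -1.03 ± 0.11, adjusted p = 2.79e-05), and Mertk, which clears dying cells, from 7.4, 4.65 and 3.55 CPM to 1.85, 1.37 and 1.36 CPM (log2 fold change -1.76 ± 0.33, adjusted p = 0.00198). Of 19 genes of costimulation and MHC class II 11 rose and 1 fell. Cd40, the costimulatory receptor, was at 4.93, 4.76 and 5.81 CPM in medium and 192, 183 and 191 CPM under LPS, Cd274, which encodes PD-L1, at 7.54, 6.51 and 8.35 CPM in medium and 102, 92.1 and 94.8 CPM under LPS, and Icosl, the ICOS ligand, at 9.19, 8.35 and 10.7 CPM in medium and 49.9, 53 and 53.3 CPM under LPS. Of 29 integrins and adhesion molecules 13 rose and 2 fell, with Icam1 at 3.36 ± 0.13, Itga5, the fibronectin receptor, at 2.58 ± 0.13 and Cd44 at 1.97 ± 0.13.

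Homeostatic microglia markers, as far as they were detected, fell more often than they rose. Of 21 tested, 9 fell and 4 rose, with a median of -0.45. Cx3cr1, the fractalkine receptor, was at 6.3, 4.67 and 3.61 CPM in medium and 1.69, 0.798 and 1.22 CPM under LPS (log2 fold change -1.96 ± 0.33, adjusted p = 0.000963). Abi3, an actin regulator, fell from 4.07, 3.46 and 4.24 CPM to 1.33, 1.42 and 1.57 CPM. Mef2c fell from 229, 188 and 196 CPM to 149.8, 133 and 155 CPM (log2 fold change -0.49 ± 0.15, adjusted p = 0.0309), a call lost without medium replicate 1 (adjusted p = 0.0557) or LPS replicate 1, 2 or 3 (0.0788, 0.106 and 0.0627) or when the pseudogene share entered as covariate (0.0631). Csf1r, the receptor for the survival factor CSF1, fell by 0.41 ± 0.11 on the log2 scale (adjusted p = 0.0139, 0.051 without LPS replicate 2 or 3 and 0.0643 with that covariate), while its ligand Csf1 rose from 126, 106 and 115 CPM to 967, 971 and 1008 CPM. Rhob, a small GTPase, was the member that rose most, at 31.4, 28.3 and 28.4 CPM in medium and 88.2, 69.5 and 79.8 CPM under LPS. P2ry12 passed the test at -1.09 ± 0.35 (adjusted p = 0.0349) with overlapping groups of 1.03, 0.8 and 0.436 CPM and 0.518, 0.274 and 0.253 CPM, and lost its call without medium replicate 1 or 2 (adjusted p = 0.0879 and 0.0556) or LPS replicate 2 or 3 (0.103 and 0.132), with the covariate (0.233) and in a fit of only the 6 WT libraries (0.0872). Of 24 disease-associated microglia markers 7 rose and 2 fell (29.2% and 8.3%, near the background), and Gpnmb, the most counted of them, was at 3160.3, 2274 and 2618 CPM in medium and 3265, 2527 and 3261 CPM under LPS, with overlapping groups.

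Genes of cell death and survival rose in most cases. Of 37 genes 26 rose and 4 fell, with a median of 0.87. Traf1, an adaptor of TNF receptors that promotes survival, was at 7.16, 7.31 and 8.26 CPM in medium and 374, 358 and 348 CPM under LPS (log2 fold change 5.57 ± 0.13, adjusted p = 3.41e-10). Mcl1, an anti-apoptotic BCL2 protein, rose from 384, 332 and 336 CPM to 1041, 933 and 1017 CPM (log2 fold change 1.51 ± 0.20, adjusted p = 0.000149). Bmf, a pro-apoptotic BH3-only protein, had the largest decrease of the list, at 19.4, 14 and 15.1 CPM in medium and 1.26, 1.5 and 1.99 CPM under LPS (log2 fold change -3.35 ± 0.29, adjusted p = 5.44e-06). The near-identical copies Bcl2a1a and Bcl2a1d, which share 79.6% and 89.1% of their 31-base words with other genes, both rose (4.22 and 4.37), and their separate levels are uncertain. Of 20 p53 targets 11 rose and 2 fell. Fas, a death receptor, was at 1.29, 0.692 and 1.01 CPM in medium and 19.8, 16 and 18.6 CPM under LPS, and Plk2, a stress-induced polo-like kinase, at 60.6, 47.3 and 47.6 CPM in medium and 921, 823 and 851 CPM under LPS. Trp53 itself rose from 161, 154 and 167 CPM to 275, 252 and 254 CPM (log2 fold change 0.70 ± 0.07, adjusted p = 1.81e-05).

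Genes of DNA replication fell more often than they rose. Of 35 genes of the G1/S transition and DNA replication 17 fell and 3 rose, with a median of -0.32. E2f1, a factor that opens S phase, was at 60.8, 57.4 and 62.6 CPM in medium and 24.6, 23.4 and 26.5 CPM under LPS (log2 fold change -1.28 ± 0.12, adjusted p = 1.35e-05), and Cdc6, which loads the replicative helicase, at 35.6, 32.1 and 33 CPM in medium and 15, 13.3 and 16 CPM under LPS (log2 fold change -1.19 ± 0.19, adjusted p = 0.000627). Cdk6, a G1 kinase, was among the 3 that rose, from 351, 286 and 291 CPM to 862, 728 and 808 CPM (log2 fold change 1.37 ± 0.17, adjusted p = 8.79e-05). Mcm6, the most counted member, was at 332, 309 and 315 CPM in medium and 299, 281 and 325 CPM under LPS, with overlapping groups. Of 62 replication-cluster histone genes 33 fell and none rose, with a median of -0.44. Hist2h2be was at 27, 28.1 and 29.6 CPM in medium and 7.5, 10.1 and 10.6 CPM under LPS (log2 fold change -1.58 ± 0.13, adjusted p = 4.5e-06). Hist1h2ba was at 38, 104 and 16.38 CPM in medium and 15.4, 12.7 and 16.40 CPM under LPS (-1.83, adjusted p = 0.0202). Hist1h4j was at 167, 320 and 138 CPM in medium and 114, 87.3 and 118 CPM under LPS (-0.97, adjusted p = 0.02). Both were highest in medium replicate 2. With the pseudogene share as a covariate both lost their call, at -0.26 (adjusted p = 0.185) and -0.30 (0.162). They also lost it in a fit of only the 6 WT libraries (0.0906 and 0.0807). A median histone gene shares 55.2% of its 31-base words with other genes, so counts of single members are uncertain. Genes of G2/M and mitosis split evenly, with 7 of 28 higher and 7 lower and a median of 0.15 that turned to -0.19 with library size alone. Mki67 was at 512, 506 and 600.4 CPM in medium and 705, 566 and 636 CPM under LPS and did not pass the test.

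Chromatin enzymes gave 14 higher and 8 lower of 40, with a median of 0.19, and -0.15 with library size alone. Tet2, which oxidises methylated cytosine, was at 143, 142 and 161 CPM in medium and 617, 544 and 555 CPM under LPS (log2 fold change 1.95 ± 0.15, adjusted p = 2.42e-06). Setdb2, a histone methyltransferase gene, rose from 12.1, 11 and 11.3 CPM to 67.4, 64 and 63.2 CPM (log2 fold change 2.50 ± 0.12, adjusted p = 5.53e-08), and Kdm4a, a histone demethylase gene, from 42.7, 39.9 and 41 CPM to 135, 122 and 123 CPM (log2 fold change 1.62 ± 0.08, adjusted p = 1.09e-07). In each of these 3 genes the lowest LPS library was more than 2-fold above the highest medium library. Rere, a nuclear receptor corepressor, was among the largest losses in CPM, at 273, 261 and 296 CPM in medium and 121, 122 and 127 CPM under LPS (log2 fold change -1.17 ± 0.08, adjusted p = 1.23e-06). Cbx5, which encodes the heterochromatin protein HP1-alpha, fell by 0.43 ± 0.11 on the log2 scale (adjusted p = 0.0137), and lost its call without LPS replicate 1 or 2 (adjusted p = 0.0554 and 0.0585).

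Lipid genes moved in both directions. Of 35 genes of fatty acid and lipid droplet metabolism 11 fell and 8 rose. The share that fell, 31.4%, was above the 13.6% of protein-coding genes, while the share that rose, 22.9%, was near their 23.2%. Scd2, a stearoyl-CoA desaturase that makes monounsaturated fat, lost more CPM than any other protein-coding gene that fell without overlap, at 1719, 1482 and 1646 CPM in medium and 649.5, 635 and 802 CPM under LPS (log2 fold change -1.22 ± 0.14, adjusted p = 4.83e-05). Lpin1, a phosphatidate phosphatase, fell from 107, 89 and 103 CPM to 29.3, 27.4 and 35.1 CPM (log2 fold change -1.70 ± 0.26, adjusted p = 0.00066). Scd1 fell by 2.49 ± 0.38 on the log2 scale, with medium values of 23, 47.4 and 13.2 CPM that spread more widely than those under LPS (4.56, 4.71 and 5.59 CPM). Of 13 genes of sterol efflux and LXR targets 5 fell and 1 rose. Abcg1, a cholesterol exporter, was at 100.2, 95.7 and 107 CPM in medium and 42, 55.6 and 64.4 CPM under LPS (log2 fold change -0.90 ± 0.17, adjusted p = 0.00205), and Nceh1, which hydrolyses cholesterol esters, at 205, 164 and 172 CPM in medium and 88.7, 78.8 and 93.9 CPM under LPS (log2 fold change -1.05 ± 0.13, adjusted p = 9.19e-05). Of 26 genes of cholesterol synthesis and uptake 8 rose and 3 fell (30.8% and 11.5%, near the background). Sphingolipid genes gave 12 higher and 6 lower of 28: Ugcg, which makes glucosylceramide, rose by 1.24 ± 0.11, and Cerk, the ceramide kinase, fell from 308, 263 and 282 CPM to 150.1, 129 and 171 CPM (log2 fold change -0.92 ± 0.13, adjusted p = 0.000218).

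Genes of central carbon metabolism were called about as often as protein-coding genes as a whole, or less often. Of 28 genes of glucose uptake and glycolysis 8 rose and 2 fell (28.6% and 7.1%, near the background of 23.2% and 13.6%). Slc2a6, a hexose transporter, rose by 1.83 ± 0.07, Pfkfb3, which makes the activator of phosphofructokinase, by 1.33 ± 0.13, and Slc2a1, the glucose transporter GLUT1, by 1.19 ± 0.18. Of 29 genes of pyruvate and the tricarboxylic acid cycle 3 rose and 1 fell (10.3% and 3.4%). Acod1 and Dld were among the increases. The decrease was in Idh1, from 99, 84.5 and 83.7 CPM to 65.5, 53.2 and 61.7 CPM (log2 fold change -0.57 ± 0.10, adjusted p = 0.00123). Of 36 nuclear respiratory chain genes 7 rose (19.4%) and none fell. Their median was 0.22 and -0.11 with library size alone. Of 13 mitochondrially encoded subunits 1 fell, mt-Nd3 at -0.91 ± 0.18, and 98.1% of its 31-base words also occur in other transcripts.

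Metal handling and stress programmes rose in part. Of 24 iron, zinc and metallothionein genes 15 rose and 1 fell, with a median of 0.54. Slc11a2, an importer of ferrous iron, was at 43.1, 35.6 and 40.2 CPM in medium and 335, 306 and 344 CPM under LPS (log2 fold change 3.05 ± 0.12, adjusted p = 1.39e-08), Slc39a14, a zinc and iron importer, at 47.2, 48.1 and 52.4 CPM in medium and 175, 164 and 151 CPM under LPS, and Cp, the ferroxidase ceruloplasmin, at 5.58, 2.9 and 5.66 CPM in medium and 26.8, 30.4 and 17.3 CPM under LPS. Of 25 NRF2 targets 14 rose and 2 fell. Slc7a11, the cystine importer, rose from 146, 183 and 118 CPM to 901, 847 and 859.6 CPM (log2 fold change 2.54 ± 0.17, adjusted p = 6.79e-07), while Osgin1, an oxidative stress response gene, fell from 15.1, 12.8 and 13.6 CPM to 3.44, 3.32 and 3.2 CPM (log2 fold change -2.06 ± 0.18, adjusted p = 5.89e-06). Of 27 ATF4 targets and serine synthesis genes 16 rose and none fell, with Trib3 at 2.30 ± 0.31 and Chac1, which degrades glutathione, at 2.35 ± 0.45. Cytosolic aminoacyl-tRNA synthetases, which charge tRNAs with amino acids, rose in 17 of 20 cases by small amounts, with a median of 0.54. The largest increase was in Aars (129, 120.1 and 129 CPM in medium and 254, 260.0 and 272 CPM under LPS). Shifts as small as this median depend in part on the scaling, since with library size alone the median over all genes was -0.40 rather than -0.07.

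Protein turnover and synthesis genes showed small shifts that depended on the scaling or on 1 library. Of 33 proteasome genes 27 rose and none fell (median 0.38); 9 rose with library size alone and 13 without medium replicate 2. The members with the largest increases were interferon-inducible: Psmb9 (1.76 ± 0.29), Psme2 (1.54 ± 0.16) and Psmb10 (1.25 ± 0.12) of the immunoproteasome and its activator. Of 82 ribosomal protein genes 56 rose and none fell (median 0.39), but 10 rose without medium replicate 2 and none with library size alone. Their summed level was 29042, 23036 and 27205 CPM in medium and 38082, 32253 and 36828 CPM under LPS. The groups did not overlap, and the lowest value was that of medium replicate 2, the library with the highest pseudogene share. Rpl7a was at 1204, 473 and 1401 CPM in medium and 1794, 1601 and 1739 CPM under LPS. The part of the pseudogene share in this result was not tested. Of 25 chaperones 12 rose and none fell, with Hsp90aa1, which shares 51.4% of its 31-base words with other transcripts, at 0.73 ± 0.11. Of 27 genes of the unfolded protein response 8 rose and 4 fell (29.6% and 14.8%, near the background). Among them Herpud1 was at 1.23 ± 0.08 and Hspa5, or BiP, at 0.82 ± 0.11. With library size alone the medians of the chaperone and unfolded protein response lists became -0.03 and -0.20. Of 30 autophagy genes 8 rose and 4 fell (26.7% and 13.3%, near the background). Sqstm1, the autophagy adaptor p62, rose from 311, 273 and 282 CPM to 2010.4, 1845 and 2030.3 CPM, and Ulk1, the kinase that starts autophagy, fell from 31.9, 27.2 and 32.1 CPM to 15.9, 15.1 and 18.7 CPM.

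Cytoskeletal and membrane genes rose more often than they fell. Of 35 actin, tubulin and cytoskeletal genes 23 rose and none fell (median 0.45; 13 higher and 7 lower with library size alone). Marcksl1, a membrane-bound actin regulator, was at 73.3, 74.7 and 79.5 CPM in medium and 918, 774 and 832 CPM under LPS (log2 fold change 3.47 ± 0.14, adjusted p = 2.25e-08). The related Marcks was at 25.9, 13.1 and 10.3 CPM in medium and 206, 145 and 135 CPM under LPS. They rose 11.1-fold and 9.86-fold, and Marcks had its highest value in replicate 1 of either group. Of 33 ion channels 15 rose and 6 fell, with a median of 0.09 that turned to -0.25 with library size alone. Lrrc8d, a subunit of volume-regulated anion channels, rose by 2.49 ± 0.09, and the endolysosomal channel Mcoln2 by 1.69 ± 0.11.

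Clock and developmental signalling genes gave mixed changes. Of 21 circadian clock genes 6 rose and 7 fell. The output gene Dbp was at 6.66, 7.53 and 7.21 CPM in medium and 2.83, 3.17 and 2.12 CPM under LPS (log2 fold change -1.40 ± 0.17, adjusted p = 8.88e-05), Per3 fell by 1.46 ± 0.18 on the log2 scale, and Nfil3, a repressor that opposes Dbp, rose by 1.07 ± 0.11. Of 27 Notch genes 6 rose and 7 fell, with the receptor Notch1 at 13, 12.2 and 11.1 CPM in medium and 35.2, 26.3 and 32.2 CPM under LPS and Lfng, which modifies Notch, at 29.2, 23.9 and 26.4 CPM in medium and 12.9, 10.6 and 12.9 CPM under LPS. Of 29 TGF-beta, SMAD and BMP genes 11 rose and 6 fell, among them the inhibitors Skil (1.36 ± 0.12) and Tgif1 (1.07 ± 0.10), which rose, and Smad6 (-1.02 ± 0.16), which fell.

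Of 3131 long noncoding RNAs 236 rose (7.54%) and 498 fell (15.9%), the latter close to the 16.3% of all genes. Mir155hg, the host transcript of miR-155, was at 0.737, 1.02 and 1.31 CPM in medium and 25.9, 48.1 and 28.9 CPM under LPS (log2 fold change 5.05 ± 0.29, adjusted p = 3.11e-07), and Mir22hg, the host of miR-22, at 2.78, 3.48 and 2.66 CPM in medium and 11.4, 16.7 and 9.64 CPM under LPS. Ptgs2os and Ptgs2os2, named as opposite-strand transcripts of Ptgs2, rose by 3.27 ± 0.26 and 2.05 ± 0.22. The strand setting of the counting is not given in the sources used here, so reads of antisense genes and of their partners cannot be told apart with certainty. Neat1, the scaffold of paraspeckles, was at 1485, 1325 and 1801 CPM in medium and 619.9, 1095 and 608 CPM under LPS (log2 fold change -0.99 ± 0.29, adjusted p = 0.025), with LPS replicate 2 well above the other LPS libraries. Its call was lost without medium replicate 3 (adjusted p = 0.0589) or LPS replicate 1 or 3 (0.0979 and 0.0955), and without a filter on low counts (0.0695). Malat1 did not pass the test (-0.41 ± 0.22, adjusted p = 0.178). Among other genes with large decreases, Slc26a11, an anion transporter, was at 17.2, 15.9 and 16.4 CPM in medium and 1.69, 1.99 and 1.92 CPM under LPS, Kbtbd11 at 64.8, 56.9 and 59 CPM in medium and 8.81, 7.93 and 9.45 CPM under LPS, Nsmf at 17.3, 19.2 and 22.2 CPM in medium and 3.07, 4.04 and 3.18 CPM under LPS, and Sgsh, a lysosomal sulfatase, at 12.3, 9.49 and 11.1 CPM in medium and 1.93, 1.8 and 2.04 CPM under LPS.

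Promoter sequences differed with the size of the response. Promoter windows (250 bases before to 50 after the start) were found for 13875 of 26144 tested genes with a symbol, 17470 windows in all, since a gene can have several. An ISRE core was present in 41% of 117 windows of genes raised by at least 4 on the log2 scale, the group of the 5 printed promoters. The share was 18.1% at 2 to 4, 10% at 1 to 2, 6.78% in genes not called, 5.77% in genes lowered by 1 or more and 8.56% of all 32851 windows in the table. The NF-kB consensus also fell over the 3 upper groups, with smaller steps, at 12.8%, 9.2% and 8.58% in the 3 upper groups, 5.07% in genes not called and 4.51% of all windows. The AP-1 motif TGANTCA was found in 24.8% of the windows of the strongest group and 6.14% of those of genes not called, against 7.81% of all windows. The GAS motif TTCNNNGAA, stood at 13.7% and 6.82%, against 8.3% overall. The CRE TGACGTCA was at 0.855% and 2.53%, and at 1.79% overall. Of the strongest group, 48.7% of windows held neither an NF-kB nor an ISRE match, which says only that these letters are not in that window. Both strands were searched and matches of different motifs may overlap. Base composition moved with the groups, with a mean GC content of 50.3% in the strongest group, 58.5% in genes not called and 53.8% in all windows, and its part in the shares was not tested. No test was made, since windows of 1 gene and of gene clusters share sequence.

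**Figure D5:**
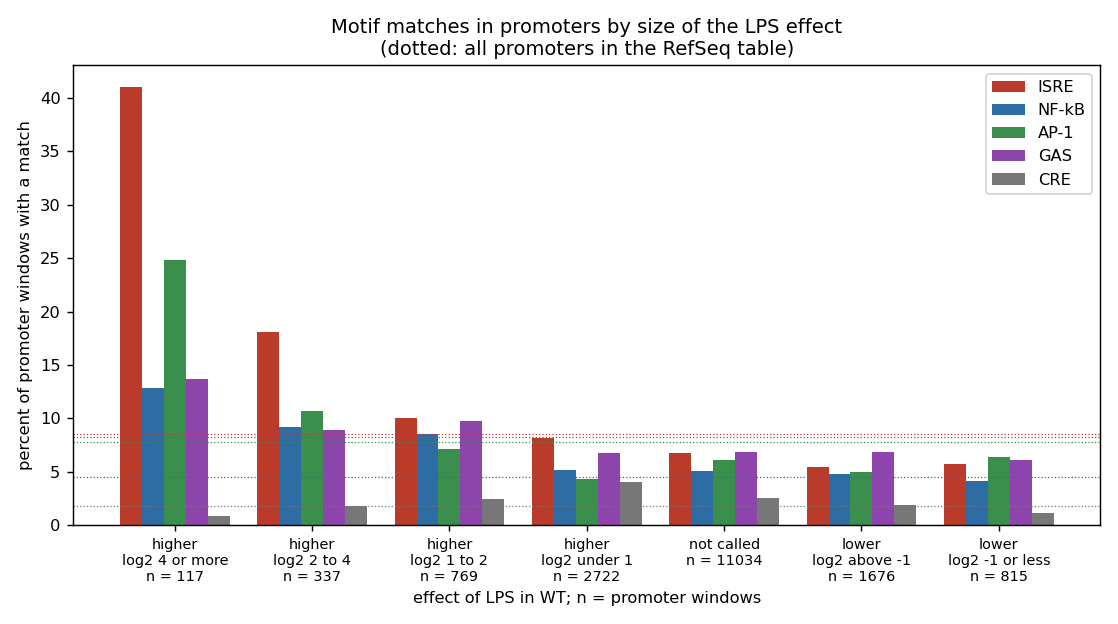
Percent of promoter windows with a match to each of 5 motifs, by size of the LPS effect in WT cells, with the share over all windows of the RefSeq table as dotted lines. The ISRE core falls from 41% in genes raised by at least 4 on the log2 scale to 5.43% in genes lowered by less than 1.

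The LPS effect in WT was also set against that in the H14 line, with a test of the difference itself over all 12 libraries. Mok, the gene labelled as knocked out, was at 3.33, 3.53 and 3.21 CPM in WT medium and 2.83, 2.17 and 2.50 CPM in WT LPS, against 2.24, 2.59 and 1.93 CPM in H14 medium and 1.695, 1.544 and 1.319 CPM in H14 LPS. It was thus lower in each H14 library than in every WT library of the same treatment but far from 0, and a count over the whole gene does not check for an edit within it. The test of the difference passed for 423 of 26420 genes (1.6%) and for 28 of the 255 genes that the naming rule gave. Traf1 rose by 5.57 in WT with a difference of 1.25 (H14 line minus WT), and Cish by 5.07 with a difference of -3.97. Tnf and Il1b did not differ by this test (0.11, adjusted p = 0.794, and 1.01, adjusted p = 0.231), which does not show that the lines responded alike.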

How the data were processed

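Raw read counts per Ensembl gene, as deposited by the authors, were used for all 12 libraries. Per the submitters' processing notes, the authors used FastQC 0.11.9, Trimmomatic 0.39, STAR 2.7.9a, featureCounts and DESeq2 1.32.0 on GRCm39. The release of the annotation, how strand was handled and how multi-mapping reads were counted are not stated in the labels or headers. Of 55416 identifiers 52135 matched a symbol in GENCODE on GRCm38, used for names, gene classes and transcript sequences only (5.17% to 7.33% of the counts of a WT library had no symbol); coordinates are those of the RefSeq promoters (GRCm38.p6). The test was that of edgeR 4.0.16 in R 4.3.3: filterByExpr by group (count minimum 10), TMM scaling, a robust quasi-likelihood fit (glmQLFit, glmQLFTest) with 4 group means over all 12 libraries, and Benjamini-Hochberg adjustment over the 26420 genes tested, called at an adjusted p under 0.05. The contrast was WT LPS minus WT medium. CPM are TMM-scaled, log2 fold changes carry the SE of the fit, and n is 3 per group throughout. With 41102243 to 72922794 counts per WT library, the spread between libraries of a group was a common biological coefficient of variation of 0.235. Tested on counts simulated for this comparison (25711 genes), the fit found 53 of 100 planted 2-fold and 84 of 100 planted 4-fold changes, with 7 false calls among 144. The planted changes were few, of random sign and in expressed genes, and the simulated libraries had no deviating replicate. The data hold many more changes, so these rates need not carry over.

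Genes were named by a rule: 20 fixed genes; the 12 largest changes each way at a mean log2 CPM of at least 2, without overlap; the 8 protein-coding genes with the largest gain and the 8 with the largest loss of CPM; 6 long noncoding RNAs each way; from each of 62 lists (1714 entries, 3 not found) the 3 called members with the largest change and the most counted member; and 10 genes under 1 CPM in medium. It gave 255 genes, not all of which are printed; some genes and 1 list are not reported here. Members outside it (Npc1, Sarm1 and the endothelial marker Kdr) were named after their values were seen. The comparison, the lists and the rule were chosen with earlier results of these data known. Alternatives were RLE scaling, library size alone, other filters, DESeq2 1.42.0, no robust estimation, a replicate block, a fit of the 6 WT libraries by themselves, protein-coding genes only, the pseudogene share as a covariate, the 50 most counted genes left out, each WT library left out, and a promoter window of 150 bases before the start.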

Additional observations from a re-analysis of the deposited data

Results flagged for a closer look

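For 28 of the 255 genes that the naming rule gave, the LPS effect differed between the WT and H14 lines by the test of the difference itself (edgeR quasi-likelihood test, Benjamini-Hochberg adjusted p under 0.05; 423 of 26420 genes passed), and 27 are given here. Differences are on the log2 scale, as the effect in the H14 line minus that in WT. They compare fold changes, which also depend on the level in medium. The levels of these genes in the H14 libraries are not given here.

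Of the genes given, 4 guanylate-binding proteins and Cd274 rose more in WT. Samhd1 rose in WT (0.87) and was called lower in the H14 line (-0.19, adjusted p = 0.035, edgeR). The difference was -3.22 for Gbp5, -2.38 for Gbp7, -1.86 for Gbp3, -1.28 for Gbp2, -1.47 for Cd274 and -1.06 for Samhd1. Other interferon-stimulated genes did not pass this test, among them Ifit1 (-0.94, adjusted p = 0.619), Rsad2 (-0.88, 0.563) and Cmpk2 (-1.29, 0.432). Among other genes with a larger WT increase it was -3.97 for Cish (WT 5.07, H14 1.10), -1.36 for Setdb2, -1.24 for Ptges, -1.07 for Rnd1 and -0.67 for Coro1a, a regulator of actin. Peak1os, named as an opposite-strand transcript, differed by -1.65, and Lyl1, which fell further in the H14 line, by -0.94. Cd38, an enzyme that consumes NAD, and Notch1 also had fitted changes of opposite sign, as Samhd1 did. They were at 1.13 and 1.37 in WT and -0.88 and -0.30 in the H14 line, with differences of -2.01 and -1.67.

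Other genes had a larger fold change in the H14 line, which does not say that their level under LPS was higher there. The difference was 3.55 for Acod1 (WT 6.78, H14 10.33), 2.58 for Nos2 (WT 5.30, H14 7.88), 1.84 for Il1rn, 1.60 for Ccl2 (a monocyte chemokine), 1.37 for Icosl, 1.25 for Traf1, 1.15 for Ikbke, 1.05 for Kdm4a, 0.99 for Flt1 and 0.79 for Hsd17b7, an enzyme of cholesterol synthesis. Fam78a and Abi3 fell less in the H14 line, with differences of 1.42 and 1.28. The H14 line is 1 line, so a property of that line and the labelled knockout cannot be told apart.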

How the results depend on the processing

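Counts of called genes moved with the scaling, with a covariate and with single libraries, and the cause was not tested. Library size alone gave 2104 genes higher and 9985 lower, and among protein-coding genes 1812 and 5692. The pseudogene share as a covariate left 2312 genes lower. Leaving out 1 WT library gave 2980 to 4063 genes higher and 2094 to 6337 lower, among protein-coding genes 2562 to 3511 and 1374 to 2527. The lowest count of genes lower was without LPS replicate 1 and the highest without medium replicate 3. Against a fold of at least 2, glmTreat called 746 genes higher and 214 lower, where 1476 and 2473 had passed the fold and the adjusted p separately. With the replicate block 4849 genes rose and 3995 fell. Same-numbered WT libraries deviated together by r = 0.23, -0.17 and -0.08, so the numbers are not shown to pair them. Of the 225 named genes called, 188 stayed called in the same direction under every alternative and 222 kept their sign. The 3 exceptions in sign came with library size alone, where Hsp90ab1 became -0.032, Pabpc1 -0.0039 and Vars -0.11. Irak1, not called otherwise, was called lower at -0.31 there. The difference between lines lost its call for Rnd1 (adjusted p = 0.0583 with library size alone, 0.0509 with the replicate block) and for Coro1a (0.0546 without the 50 most counted genes). In the 150 bases before the start the ISRE core was in 29.1% of windows of the strongest group, NF-kB in 12% and AP-1 in 17.1%, and 47 of 56 motif shares moved beyond their binomial interval. Depth limits the genes near 0 in medium, whose fold changes rest on few counts.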

Other observations

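Of 30 lysosomal genes 9 rose and 1 fell (30.0% and 3.3%, against 23.2% and 13.6% of protein-coding genes). Their median log2 fold change was 0.14 (-0.19 with library size alone). Slc15a3, an endolysosomal peptide and histidine transporter, stood apart from them at 81.7, 70.5 and 73.5 CPM in medium and 653, 578 and 554 CPM under LPS (log2 fold change 2.98 ± 0.15, adjusted p = 7.25e-08). The cholesterol exporters of the lysosome Npc1 and Npc2 rose by 0.58 and 0.77, and Npc2 lost its call with library size alone (adjusted p = 0.053, edgeR). Of 16 NAD and kynurenine genes 3 rose and 2 fell (18.8% and 12.5%, near the background). Nampt, which recycles nicotinamide, rose by 0.87 ± 0.09 and Sarm1, an NAD-cleaving enzyme, fell by 1.28 on the log2 scale. Of 35 ribosome biogenesis genes 19 rose and 2 fell, with a median of 0.33. Without medium replicate 2 only 9 of them rose, and with library size alone 4 rose and 4 fell.

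Genes with large changes often lay next to one another among the tested protein-coding genes, taken in RefSeq order (GRCm38.p6). Only these genes, 15590 in all, were placed in that order, and any other gene between them was skipped. Of these, 411 (2.64%) had been called with a log2 fold change of 2 or more. In this reduced order 134 of the 411 (32.6%) had another such gene as a direct neighbour, in 88 pairs. Of 633 genes (4.06%) called at -1 or less, 106 (16.7%) had such a neighbour, in 59 pairs. Gene family clusters are part of the pairs that rose, such as Ccl3 with Ccl4 and Gbp5 with Gbp7 and Gbp3, and family members can share reads. Neighbours of different families included Rsad2 with Cmpk2 (8.87 and 8.78), and, among genes that fell, Sgsh with Slc26a11 (-2.51 and -3.14). Rgs1 and Rgs2, of 1 family, are also neighbours in this reduced order and changed in opposite directions, at 2.12 and -2.99. These pairs were looked for after the values were seen, and no test was made.

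A processed pseudogene was taken as a copy of Gapdh if it held any 31-base word of that gene, so short matches also count. The 306 copies in this sense held 1974, 1360 and 1863 CPM of total counts in medium replicates 1, 2 and 3, and Gapdh itself 1351, 394.7 and 1504. Under LPS the copies held 2195, 1754 and 1912 CPM and Gapdh 1734, 1395 and 1520. In medium replicate 2 the copies were 3.45 times as high as the gene, against 1.24 to 1.46 times in the other 5 WT libraries. The same ratio was 2.19, 3.61 and 3.82 in the H14 medium libraries and 1.22 to 1.28 in the H14 LPS libraries.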
